A study of Mus musculus with 55 samples.

Results

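Lungs of mice that received dexamethasone together with sodium arsenite (dex+As, 5 mice) were compared with lungs of mice that received sodium arsenite alone (As, 4 mice), 8 hr after a single injection. The comparison asked which transcripts answered the glucocorticoid when arsenite was present. These 9 mice are part of 55 in the series, and their groups were taken from their injection labels. One more As mouse, replicate E, was set aside because its array differed from the other 4 (r = 0.264 with their mean, SD of its log2 values 1.17 against 2.37 to 2.41). Another 10 mice, 5 with dexamethasone alone (dex) and 5 with saline, gave the same dexamethasone comparison without arsenite and share no mouse with it.

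All 4 injection groups were male C57BL/6 mice (C57BL/6J in the study's methods), 6 weeks old at the start, that had 2 weeks on the purified AIN-76A diet before the injection. None had arsenite added to food or water. The dose was 1 mg/kg for dexamethasone and 1 mg/kg for sodium arsenite, each given intraperitoneally in saline. RNA of the lung, with all its cell types mixed, was hybridised to an Affymetrix mouse whole-genome oligonucleotide array, 1 array per mouse. Values below are log2 of the probe set signal after robust multiarray averaging (RMA), so a difference of 1 is a 2-fold change. Each change is given as the log2 difference, dex+As minus As, ± its standard error.

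Dexamethasone is a synthetic agonist of the glucocorticoid receptor, the product of *Nr3c1*. In the cytoplasm the receptor is held by the chaperone HSP90 and its co-chaperones, and once it binds hormone it moves to the nucleus. There it raises some genes through glucocorticoid response elements in DNA and lowers inflammatory genes, partly by binding to the factors that drive them. In lung, glucocorticoids are known for their effects on leukocytes, on surfactant and ion transport and on the fibroblasts of the airspace walls. Arsenite is a thiol-reactive metalloid known to induce heat shock and metallothionein genes.

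The arrays carried lung RNA. Alveolar type II marker genes, the surfactant proteins among them, averaged 11.8 to 12.2 in dex+As mice and 11.7 to 12.0 in As mice, and alveolar type I and endothelial genes were likewise high in every mouse used. The SD of the log2 values ran from 2.31 to 2.42 over the 19 arrays of the 4 groups, and the narrowest was that of dex+As replicate A (2.31). The array batch, 1 of 5 numbered in the names of the raw array files, differed between mice of a group, and batches 2, 4 and 5 held both dex+As and As mice. In saline replicate E, the T cell, B cell, thymus and fat marker genes were the highest of the 5 saline mice (thymus list 7.22, against 3.80 to 4.05 in the other 4), which touches the dex against saline values of lymphoid genes. Mice are separate animals, so p-values measure the spread between mice.

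At an adjusted p of 0.05 (limma, Benjamini-Hochberg over 45037 probe sets), 144 probe sets were higher in dex+As than in As lungs, 0.32% of those tested, and 136 were lower, 0.302%. At an unadjusted p of 0.05 the numbers were 2084 and 2525. When each gene was given by its probe set of highest mean, 80 of 18193 genes were higher (0.44%) and 89 were lower (0.489%). Among the 80 genes that were higher, 29 changed by more than 1 on the log2 scale, and among the 89 that were lower, 46 changed by more than that. In 76 of the 80, every dex+As mouse lay above every As mouse, which 2.42% of all genes did. In 80 of the 89, every dex+As mouse lay below every As mouse, as 3.42% of all genes did. The genes were called from these same values, so their separation is no further support. The counts of calls leaned on single mice. Without As replicate F the calls were 33 higher and 24 lower, without As replicate C 41 and 18, without dex+As replicate E 50 and 36, and without dex+As replicate C 70 and 39. Without dex+As replicate D they were 170 and 215. The calls of 50 genes were followed over 19 alternative settings. They were the 15 largest rises, the 15 largest falls and others from the gene lists or singled out. *Clca3a1*, *Fst*, *Nmb*, *Sema5a*, *Slc38a4*, *Tecrl* and *Uchl1* passed under each setting, and each of the others lost its call in at least 1. Further called genes named below were not followed in this way. Genes can have several probe sets. Of these 50 genes, 31 had 61 other probe sets, all dimmer than the one given, of which 55 changed in the same direction and 20 were called too.

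The genes with the largest rises included enzymes of steroid, amino acid and xenobiotic metabolism. *Akr1c14*, a hydroxysteroid dehydrogenase that inactivates steroid hormones, had log2 values of 10.53, 10.89, 10.80, 10.94 and 10.65 in dex+As mice, against 9.26, 8.63, 8.65 and 8.99 in As mice. Every dex+As mouse stood well above the highest As mouse. This was 1.88 ± 0.20, a 3.68-fold rise (adjusted p = 0.000457, limma). *Gnmt*, which uses S-adenosylmethionine to methylate glycine, had 8.36, 9.43, 9.11, 9.60 and 9.04 in dex+As mice, against 7.56, 7.46, 6.83 and 7.21 in As mice. All dex+As mice were above all As mice, by 1.84 ± 0.23 on average (adjusted p = 0.00193). *Sult1a1*, a phenol sulfotransferase, had 11.28, 11.57, 11.11, 11.88 and 11.42 in dex+As mice, against 10.46, 9.77, 9.43 and 9.66 in As mice. Again the groups did not overlap, and the change was 1.62 ± 0.23 (adjusted p = 0.0051).

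*Sult1a1* was the one called rise among the 43 measured genes listed here as induced by the receptor, so the start of its gene is shown, together with that of *Tecrl*, whose call held under every alternative setting and whose window holds the same letters. Both lines are the RefSeq promoter window on the mouse build GRCm38.p6, 250 bases before to 50 after the start, 5′ to 3′ on the gene's own strand. Capitals mark the half-site of a glucocorticoid response element, AGAACA, or its reverse complement TGTTCT. The *Sult1a1* window lies at chr7:126676369-126676668 on the minus strand and holds 2 half-sites, which begin at positions -34 and -212 from the start. The *Tecrl* window, at chr5:83355146-83355445 on the minus strand, holds 1, at position -104. Both were picked for printing after the values and the letters were known. Of the other genes whose calls held under every alternative setting, *Nmb* has 1 half-site, at position -229. *Slc38a4* has 1 in only 1 of its windows, at position -108. The windows of *Clca3a1*, *Sema5a* and *Uchl1* hold 0, and *Fst* had no window.
Sult1a1: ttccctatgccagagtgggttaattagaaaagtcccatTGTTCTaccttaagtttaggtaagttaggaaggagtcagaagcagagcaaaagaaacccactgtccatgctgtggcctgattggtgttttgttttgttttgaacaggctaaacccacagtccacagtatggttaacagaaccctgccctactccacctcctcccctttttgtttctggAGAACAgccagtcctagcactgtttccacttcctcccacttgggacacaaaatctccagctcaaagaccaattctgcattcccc
Tecrl: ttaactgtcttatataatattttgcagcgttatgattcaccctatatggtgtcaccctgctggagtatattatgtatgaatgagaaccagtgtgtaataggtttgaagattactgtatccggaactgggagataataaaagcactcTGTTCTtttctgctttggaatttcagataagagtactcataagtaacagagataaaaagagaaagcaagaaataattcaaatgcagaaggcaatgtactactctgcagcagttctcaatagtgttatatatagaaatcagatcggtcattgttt

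*Tecrl*, which encodes an enoyl-CoA reductase-like protein, had 5.41, 7.10, 6.70, 6.97 and 7.05 in dex+As mice, against 4.95, 4.86, 4.85 and 4.72 in As mice. Replicate A was the lowest dex+As mouse by far, and it still lay above all As mice. The change was 1.80 ± 0.28 (adjusted p = 0.00602). Further enzymes had smaller rises, and these were picked after their values were seen. *Prodh* and *Cbs*, which catabolise proline and condense homocysteine with serine, changed by 0.88 ± 0.14 (adjusted p = 0.00909) and 0.84 ± 0.18 (adjusted p = 0.0339). *Abat*, the GABA transaminase, averaged 5.80 in dex+As mice and 4.62 in As mice. *Khk*, ketohexokinase, averaged 7.42 in dex+As mice and 6.84 in As mice, and *Kyat3*, a kynurenine aminotransferase, 7.39 in dex+As mice and 6.75 in As mice. The lung cytochrome P450 *Cyp4b1* averaged 13.05 in dex+As mice and 12.55 in As mice, and *Selenbp1*, a selenium-binding protein, 13.24 in dex+As mice and 12.44 in As mice. Each of these passed the adjusted threshold, and their groups did not overlap.

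Called carriers and channel regulators lay on both sides, and those that were higher are given first. *Slc38a4*, a sodium-coupled neutral amino acid transporter, had 8.76, 7.33, 7.03, 7.89 and 7.13 in dex+As mice, against 6.01, 5.61, 5.45 and 5.33 in As mice. Replicate A was the highest dex+As mouse, and the other 4 also lay above all As mice. It changed by 2.03 ± 0.33, a 4.08-fold rise (adjusted p = 0.0089), while the dimmer of its 2 probe sets changed by 0.80 with overlap (adjusted p = 0.374). *Clca3a1*, of the calcium-activated chloride channel regulator family, had the largest rise of the called genes, with 6.74, 7.47, 7.08, 7.95 and 7.57 in dex+As mice, against 5.75, 4.06, 5.31 and 4.88 in As mice. No dex+As mouse fell into the As range, and the change was 2.36 ± 0.31, or 5.14-fold (adjusted p = 0.00229). Its probe set carries the suffix x_at, which Affymetrix gives to probe sets that share sequence with other transcripts, so related *Clca* genes can add to the signal. The gene's other probe set, dimmer and without that suffix, changed by 0.76, or 1.69-fold, with no overlap and an adjusted p of 0.0593. *Tcn2*, transcobalamin II, which carries vitamin B12 in blood, was bright on the array at 12.56 ± 0.18 in dex+As mice and 11.64 ± 0.35 in As mice (SD, n = 5 and 4). It rose by 0.92 ± 0.15 (adjusted p = 0.00909), and each of its other 4 probe sets was called too, at 0.81 to 1.29. The carboxylate transporter family gene *Slc16a9* averaged 11.22 in dex+As mice and 10.09 in As mice, and the thiamine transporter *Slc19a3* 6.51 in dex+As mice and 5.61 in As mice, both called. Of carriers that were called lower, the amino acid transporters *Slc38a5* and *Slc7a10* changed by -1.18 and -1.31 and the aquaglyceroporin *Aqp9* by -1.36.

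Secreted proteins were likewise called in both directions, with *Cxcl12* and *Tnc* among those that were lower. Of those that were higher, *Fst*, follistatin, which binds and neutralises activins, had 6.62, 7.05, 6.87, 6.97 and 6.98 in dex+As mice, against 5.34, 4.68, 4.91 and 4.75 in As mice. The 5 dex+As mice lay close together and all of them above the As mice, and the change was 1.98 ± 0.26 (adjusted p = 0.00229). *Fstl3*, a follistatin relative that also binds activin, averaged 8.15 in dex+As mice and 7.35 in As mice and was called (adjusted p = 0.0142). *Nmb*, the bombesin-like peptide neuromedin B, had 6.66, 7.14, 6.39, 6.90 and 6.67 in dex+As mice, against 5.20, 5.55, 5.46 and 5.52 in As mice. Its groups were apart by 1.32 ± 0.16 (adjusted p = 0.00191). *Ccbe1*, an extracellular protein needed for lymphatic growth in mice, rose by 1.25 ± 0.23 (adjusted p = 0.0142), and the highest As mouse, replicate A at 7.01, lay under the lowest dex+As mouse, replicate D at 7.25. Of extracellular matrix proteins and their modifiers, *Timp3*, the metalloproteinase inhibitor, rose by 0.75 ± 0.17 (adjusted p = 0.0458). *Igfbp6*, an insulin-like growth factor binding protein, averaged 11.78 in dex+As mice and 10.93 in As mice, also called. *Lox*, the collagen cross-linking lysyl oxidase, was split between its probe sets, since the brightest changed by 1.12 ± 0.30 without passing (adjusted p = 0.103) and another by 1.42 with an adjusted p of 0.0245.

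Of receptors, kinases and other signalling proteins, *Sema5a*, a transmembrane guidance protein of the semaphorin family, had 6.55, 7.57, 7.32, 7.73 and 8.04 in dex+As mice, against 6.14, 5.45, 5.97 and 5.84 in As mice. Its dex+As mice were all higher, by 1.59 ± 0.23 (adjusted p = 0.00481). *Tnik*, a kinase of the Wnt pathway, had 8.45, 8.46, 7.22, 8.52 and 8.22 in dex+As mice, against 7.34, 6.40, 6.66 and 6.81 in As mice. Replicate D of dex+As, at 7.22, lay below As replicate A, at 7.34, so the groups overlapped although the change of 1.37 ± 0.28 passed (adjusted p = 0.0311). *Uchl1*, a ubiquitin hydrolase, had 7.28, 7.03, 6.37, 7.15 and 6.72 in dex+As mice, against 5.42, 6.05, 5.49 and 5.42 in As mice. Here too replicate D was the lowest dex+As mouse but stood clear of the As mice, and the change was 1.32 ± 0.20 (adjusted p = 0.00602). The latrophilin *Adgrl3* rose by 1.03 ± 0.21 (adjusted p = 0.025) in its brightest probe set, with overlap through replicate A of both groups. That probe set is of the x_at kind. Dimmer ones at 1.10, 1.15 and 1.16 were called with no overlap, and those at 0.79 and 1.14 were not called. *Tgfbr3*, the TGF-β co-receptor betaglycan, averaged 11.22 in dex+As mice and 10.44 in As mice, and *Agtr1a*, the angiotensin II type 1a receptor, 7.88 in dex+As mice and 7.06 in As mice, both called. The remaining genes of the 15 largest rises were *Galnt15*, an enzyme of O-linked glycosylation (1.83), *Rbfox3*, a splicing factor known from neurons (1.76), and 1110064A23Rik (1.45), and their groups did not overlap.

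**Figure D1:**
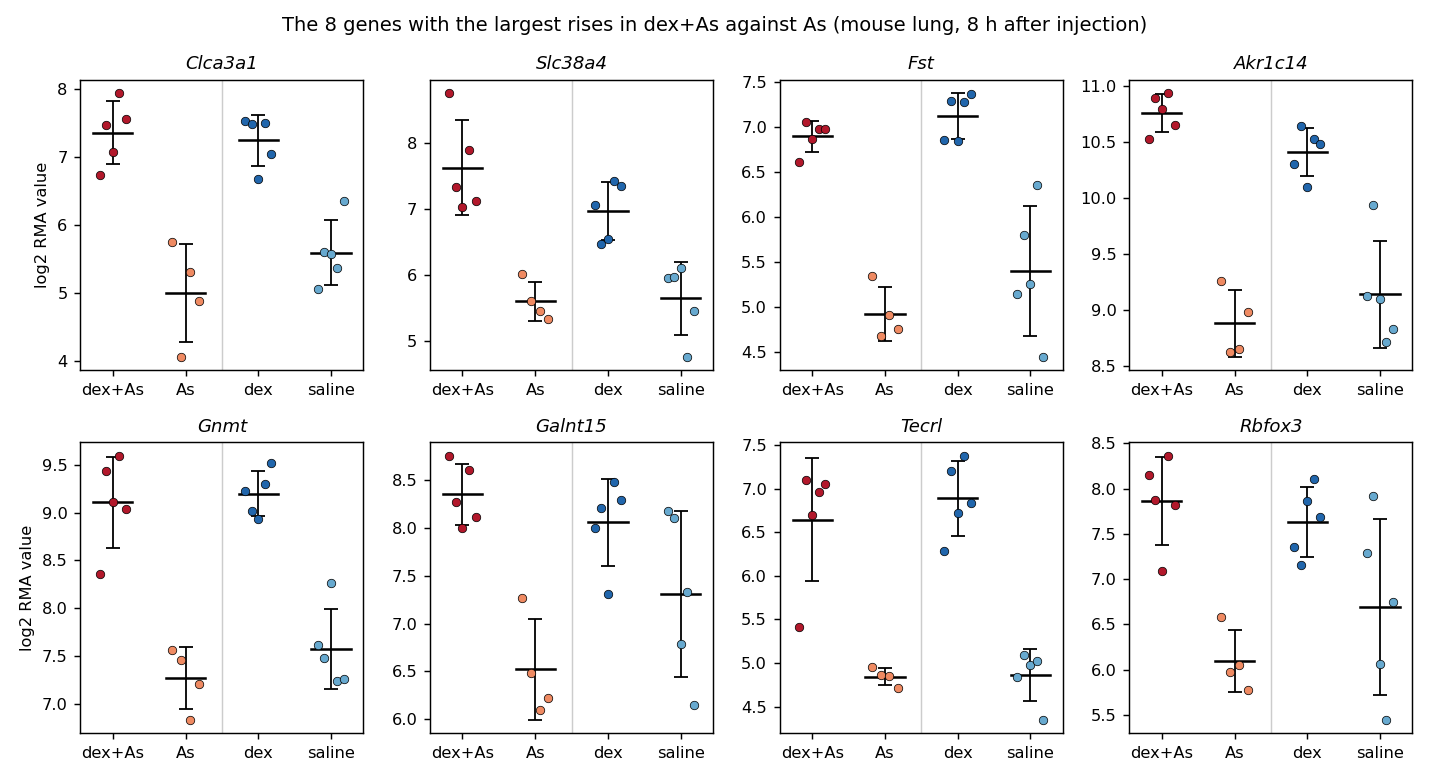
Log2 RMA values (vertical axes) of the 8 genes with the largest rises in dex+As against As lungs, 1 point per mouse, with lines for the group mean and error bars for the SD, for dex+As, As, dex and saline mice from left to right. In each panel all 5 dex+As points lie above all 4 As points, as in *Fst* (mean 6.90 in dex+As mice and 4.92 in As mice).

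Leukocyte genes were among the largest falls. In lung tissue, fewer cells of a type and less RNA per cell cannot be told apart, and this holds for each leukocyte gene below. *Cd300lb*, an immunoglobulin-like receptor of myeloid cells, had 4.75, 4.40, 5.86, 4.32 and 4.64 in dex+As mice, against 7.30, 5.97, 8.36 and 7.40 in As mice. Replicate D was the highest dex+As mouse and lay just under As replicate B. The change was -2.46 ± 0.44, 5.52-fold lower in dex+As mice (adjusted p = 0.0137). *Adgre4*, an adhesion receptor of the F4/80 family on macrophages, had 3.74, 4.22, 6.34, 3.75 and 4.24 in dex+As mice, against 6.21, 7.25, 7.84 and 6.30 in As mice. Replicate D overlapped the As mice while the other 4 lay well below them, and the change was -2.44 ± 0.53 (adjusted p = 0.0413). *Ms4a4c*, a membrane protein of the MS4A family, had 5.61, 5.66, 7.61, 4.79 and 5.75 in dex+As mice, against 7.62, 7.90, 9.61 and 7.39 in As mice. The same mouse again made the groups meet, and the change was -2.24 ± 0.45 (adjusted p = 0.0253). Its probe set is of the x_at kind, and *Ms4a4b*, a close relative found on T cells, changed by -1.89 ± 0.42 (adjusted p = 0.0469).

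Further myeloid receptors lay in the same range. *Cd300ld* changed by -1.79 ± 0.38 (adjusted p = 0.037), *Trem3*, an activating receptor of macrophages, by -1.82 ± 0.41 (adjusted p = 0.047), and *Klra17*, a Ly49 family receptor, by -2.15 ± 0.48 (adjusted p = 0.045). In all 3 the groups overlapped. *Lst1*, a transcript specific to leukocytes, had 6.71, 6.24, 7.37, 6.00 and 6.09 in dex+As mice, against 7.65, 7.86, 8.85 and 8.36 in As mice. Its groups did not overlap, with dex+As replicate D nearest the As mice, and the change was -1.69 ± 0.36 (adjusted p = 0.0373). The inhibitory receptors *Cd300a* and *Sirpa* were called as well, the first with means of 5.29 in dex+As mice and 6.71 in As mice and *Sirpa* with 8.01 in dex+As mice and 8.82 in As mice. *Cyp4f18*, a leukotriene-metabolising P450 of neutrophils, averaged 6.82 in dex+As mice and 8.23 in As mice.

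Genes shared by most leukocytes fell along with them. *Ptprc*, the pan-leukocyte phosphatase CD45, had 9.64, 9.27, 10.02, 8.92 and 9.25 in dex+As mice, against 10.58, 10.50, 11.38 and 10.66 in As mice. All dex+As mice were below all As mice, by -1.36 ± 0.27 (adjusted p = 0.0267). *Coro1a*, an actin regulator of leukocytes, and *Itgal*, the α chain of the adhesion receptor LFA-1, changed by -1.19 ± 0.26 (adjusted p = 0.0453) and -1.27 ± 0.25 (adjusted p = 0.0222). The lymphocyte antigen *Cd52* fell by 1.35 (adjusted p = 0.0459). *S100a4*, a calcium-binding protein tied to cell motility, had 8.22, 8.39, 9.20, 7.73 and 8.48 in dex+As mice, against 9.31, 10.22, 10.86 and 9.24 in As mice. Replicate D of dex+As, at 9.20, came close to the lowest As mouse, at 9.24, and the change was -1.50 ± 0.31 (adjusted p = 0.0329). Cytoskeletal and signalling proteins of leukocytes were called too, *Dock2* with means of 6.22 in dex+As mice and 7.35 in As mice, *Plcg2* with 7.16 in dex+As mice and 8.14 in As mice and *Pstpip1* with 5.22 in dex+As mice and 6.67 in As mice.

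Of lymphocyte signalling genes, *Ltb*, the membrane-bound cytokine lymphotoxin β, had 5.60, 6.36, 6.77, 5.66 and 5.81 in dex+As mice, against 7.12, 7.97, 8.20 and 7.66 in As mice. Its groups did not overlap and differed by -1.70 ± 0.36 (adjusted p = 0.0361). *Prkcb*, the protein kinase C that acts below the B cell receptor, changed by -1.62 ± 0.37 (adjusted p = 0.0482). *Il2rb*, the β chain of the IL-2 and IL-15 receptors, had 3.71, 4.29, 4.15, 3.90 and 3.98 in dex+As mice, against 5.06, 5.16, 5.28 and 5.41 in As mice. No dex+As mouse reached the As range, and the change was -1.22 ± 0.21 (adjusted p = 0.0132). The cytotoxic cell genes *Klre1*, an NK receptor (-0.90 ± 0.18, adjusted p = 0.0267), and *Ctsw*, cathepsin W, with means of 4.83 in dex+As mice and 5.84 in As mice, were also called. *Ipcef1*, which binds cytohesin exchange factors, changed by -1.62 ± 0.29 (adjusted p = 0.0142). The TNF receptor *Tnfrsf1b* averaged 6.84 in dex+As mice and 7.84 in As mice (adjusted p = 0.0188), and the NF-κB subunit *Relb* averaged 6.04 in dex+As mice and 6.60 in As mice.

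Falls outside the leukocyte genes included a chemokine and sodium channel subunits. *Cxcl12*, the chemokine that retains leukocytes through the receptor CXCR4, had 6.66, 7.86, 8.53, 7.85 and 8.58 in dex+As mice, against 9.56, 9.43, 9.46 and 9.60 in As mice. The 4 As mice lay close together, and every dex+As mouse was below them, replicate A lowest. The change was -1.62 ± 0.27, 3.06-fold (adjusted p = 0.00977). Its other probe sets, both dimmer, changed by -0.75 (adjusted p = 0.317) and 0.02 (adjusted p = 0.99). *Scn3a*, a pore-forming subunit of voltage-gated sodium channels, had 3.90, 4.43, 5.86, 4.84 and 5.37 in dex+As mice, against 6.23, 6.52, 6.97 and 7.23 in As mice. Its auxiliary subunit partner *Scn3b* had 8.26, 8.24, 8.58, 7.94 and 8.34 in dex+As mice, against 8.82, 9.95, 9.35 and 9.72 in As mice. Neither gene's groups overlapped, and the changes were -1.86 ± 0.31 (adjusted p = 0.011) for *Scn3a* and -1.19 ± 0.19 (adjusted p = 0.00933) for *Scn3b*. A dimmer probe set of each gene was not called, at -0.06 for *Scn3a* (adjusted p = 0.91) and -0.44 for *Scn3b* (adjusted p = 0.708).

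*Fabp1*, the liver-type fatty acid binding protein, had 5.38, 6.47, 7.40, 6.32 and 7.16 in dex+As mice, against 8.49, 7.87, 8.38 and 8.64 in As mice. The 2 groups were separate, by -1.80 ± 0.33 (adjusted p = 0.0171). *Fgfr4*, a fibroblast growth factor receptor, changed by -1.35 ± 0.25 (adjusted p = 0.0182) and *Tnc*, the matrix protein tenascin C, by -1.09 ± 0.20 (adjusted p = 0.0172). *Fgfr4* and *Tnc* had no dex+As mouse within the As range. *Sstr4*, a somatostatin receptor, averaged 4.99 in dex+As mice and 6.45 in As mice, and *Ddc*, which makes dopamine and serotonin from their amino acid precursors, 4.46 in dex+As mice and 5.77 in As mice. *Hspd1*, *Rgs2*, *Ccnd2* and *Oas1a* fell as well and are given with their groups below.

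**Figure D2:**
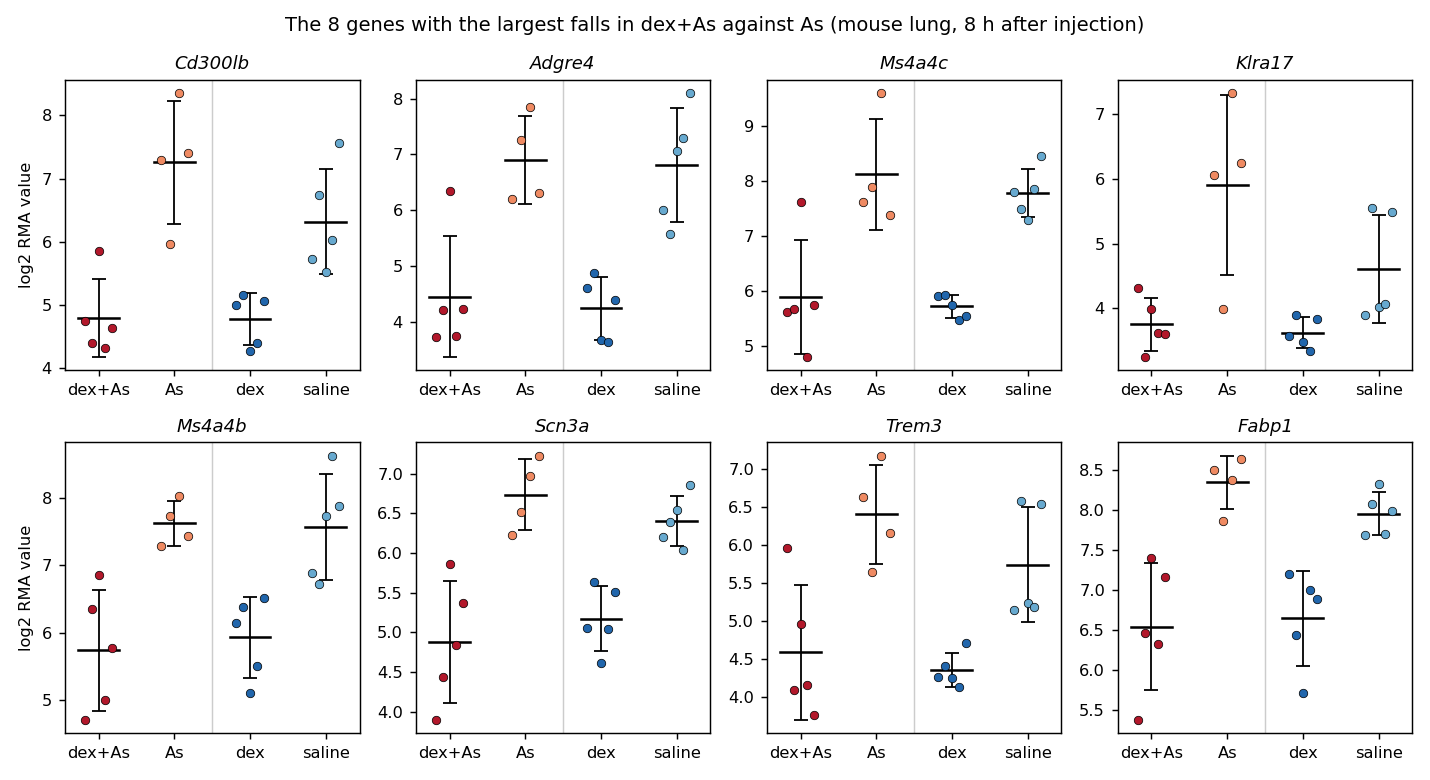
Log2 RMA values (vertical axes) of the 8 genes with the largest falls in dex+As against As lungs, 1 point per mouse, with lines for the group mean and error bars for the SD, for dex+As, As, dex and saline mice from left to right. Dex+As replicate D is the highest dex+As point for *Cd300lb* (5.86), *Adgre4* (6.34) and *Ms4a4c* (7.61).

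Genes of the receptor's own machinery had changes on both sides of 0. The list held 16 genes for the receptor, its chaperones, coactivators and the enzymes that interconvert active and inactive glucocorticoids. By the probe set of highest mean, 0 were called by limma, where 0.929% of all genes were. With any probe set of a gene counted, 1 was called higher, where 101 of 18193 genes were. An unadjusted p under 0.05 was found for 8, 6 of them lower, where 13.1% of all genes had one. Their median change was -0.08 against -0.01 over all genes. *Nr3c1* had 9.37, 9.94, 10.23, 9.70 and 10.03 in dex+As mice, against 10.27, 10.16, 10.35 and 10.55 in As mice. The groups met, as dex+As replicate D lay above As replicate B, and the change was -0.48 ± 0.16 (adjusted p = 0.204). *Stip1*, the co-chaperone that links HSP70 and HSP90, changed by -0.85 ± 0.21 (adjusted p = 0.0717). *Hsd11b1*, which regenerates active corticosterone in mice, was bright and near level at 12.32 ± 0.24 in dex+As mice and 12.25 ± 0.17 in As mice (SD).

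Classical targets mostly had positive changes, though most were not called. Of 43 receptor-induced genes measured, 39 had a change above 0, where 8552 of 18193 genes overall did, and their median was 0.39 against -0.01. At an unadjusted p of 0.05, 17 were higher and 1 lower, where 5.48% and 7.62% of all genes were. In 8 every dex+As mouse lay above every As mouse and in 1 below, where 2.42% and 3.42% of all genes did. *Sult1a1* was called higher and *Rgs2*, a regulator of G protein signalling, lower, at -0.80 ± 0.17 (adjusted p = 0.0339). Of all genes, 0.44% were called higher and 0.489% lower. Averaged over the 43 genes, the level was 10.17, 9.32, 8.98, 9.86 and 9.02 in dex+As mice, against 8.92, 8.88, 9.03 and 9.04 in As mice. Replicates A, C and E were above all As mice, while replicates D and F were within their range. The median change was 0.25 without dex+As replicate A and 0.60 without replicate D. With array batch as a block it was 0.23.

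*Fkbp5*, the receptor's own feedback co-chaperone and its best known target, had 10.87, 9.11, 7.59, 10.07 and 8.77 in dex+As mice, against 7.88, 7.18, 8.62 and 7.28 in As mice. Dex+As replicate D, at 7.59, lay below As replicate C, at 8.62, so the groups overlapped, and the change of 1.54 ± 0.55 missed the threshold (adjusted p = 0.261). The order of the dex+As mice was shared by *Zbtb16*, a transcription factor, with 10.36, 8.53, 7.12, 9.42 and 7.88 in dex+As mice, against 7.22, 6.54, 8.60 and 6.88 in As mice. *Pdk4*, which spares glucose by blocking pyruvate dehydrogenase, had 9.92, 7.70, 6.35, 8.24 and 6.91 in dex+As mice, against 6.48, 6.10, 7.00 and 6.36 in As mice. In both, as in *Fkbp5*, replicate A was the highest dex+As mouse and replicate D the lowest. Their changes were 1.35 ± 0.62 (adjusted p = 0.459) and 1.34 ± 0.54 (adjusted p = 0.349).

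Metallothionein 2, *Mt2*, which binds zinc and is induced by both glucocorticoids and metals, had 11.75, 8.70, 8.10, 9.10 and 8.22 in dex+As mice, against 7.73, 7.79, 7.99 and 8.04 in As mice. All dex+As mice were higher, replicate A by far the most, and the change was 1.28 ± 0.51 (adjusted p = 0.348). *Glul*, glutamine synthetase, had 11.45, 10.96, 10.45, 11.09 and 10.67 in dex+As mice, against 10.34, 10.17, 10.37 and 10.16 in As mice. Its groups did not overlap, and of the uncalled genes of the receptor-induced list it came closest, at 0.66 ± 0.16 (adjusted p = 0.0747). *Angptl4*, a lipoprotein lipase inhibitor, was also higher in every dex+As mouse, at 1.19 ± 0.35 (adjusted p = 0.142). The anti-inflammatory targets *Tsc22d3* (GILZ) and *Dusp1*, a MAP kinase phosphatase, changed by 0.38 ± 0.27 and 0.20 ± 0.31 and the clock gene *Per1* by 0.39 ± 0.34, none called, with adjusted p-values of 0.736, 0.924 and 0.807. *Sgk1*, a kinase that raises sodium uptake, was near level at 0.28. The transcription factor *Klf9* changed by 0.18 in its brightest probe set. Its dimmer probe sets changed by 0.11, 0.36, 0.58, 0.60, 0.89 and 0.90, none called (limma, lowest adjusted p 0.203). Of 20 anti-inflammatory effectors, 0 were called (5 at an unadjusted p of 0.05), where 0.929% of all genes were called and 13.1% had such a p. Their signs were mixed, 9 above 0 and 11 below, with a median of -0.02. *Cd163*, the hemoglobin scavenger receptor of macrophages, had 6.36, 6.51, 5.64, 6.35 and 5.90 in dex+As mice, against 5.14, 5.08, 5.03 and 4.76 in As mice. Every dex+As mouse was above every As mouse, yet the change of 1.15 ± 0.28 did not pass (adjusted p = 0.0702). *Il10ra*, on the same list, went the other way, with every dex+As mouse below every As mouse. Its change of -1.14 ± 0.26 did not pass either (adjusted p = 0.0517).

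Chaperone genes had mostly negative changes in dex+As against As lungs. Of 14 heat shock genes, 12 changed below 0 with a median of -0.61. At an unadjusted p under 0.05, 10 were lower, where 7.62% of all genes were. *Hspd1* alone was called lower (limma), where 0.489% of all genes were. *Hspd1*, the mitochondrial chaperonin, had 9.92, 10.09, 10.06, 10.19 and 10.40 in dex+As mice, against 10.78, 10.61, 11.17 and 10.58 in As mice. The groups did not overlap and differed by -0.65 ± 0.14 (adjusted p = 0.0338). *Hspa1b*, the inducible HSP70, had 7.85, 7.95, 9.64, 8.92 and 9.93 in dex+As mice, against 11.36, 9.19, 10.99 and 9.72 in As mice. The groups overlapped through dex+As replicates D and F, and the change was -1.46 ± 0.55 (adjusted p = 0.308). *Hspa1a* and *Hspa1b* are near-identical copies that probe sets may not separate. *Hsph1*, a chaperone that helps HSP70 proteins exchange nucleotide, changed by -1.37 ± 0.36 (adjusted p = 0.0975). The list's median was -0.46 without dex+As replicate A and -0.55 with array batch as a block.

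Without arsenite, the median of the heat shock genes was 0.18 in dex against saline mice, with 0 of 14 called (limma). *Hspa1b* had 9.58, 9.55, 10.92, 11.46 and 9.23 in dex mice, against 7.84, 8.80, 9.49, 8.21 and 9.42 in saline mice. There 4 of the 5 dex mice lay above every saline mouse, and the 2 dexamethasone changes differed by -2.86 (95% interval -4.45 to -1.27). That is the interaction, the dex+As against As change minus the dex against saline change, with an unadjusted p of 0.00133. No interaction passed at an adjusted p of 0.05 over all probe sets (limma, lowest adjusted p 0.379), where 1706 of 45037, 3.79%, had an unadjusted p under 0.05. For genes given by 1 probe set that share was 4.44%, and 11 of the 14 heat shock genes had it. *Hspd1* differed by -0.47 (95% interval -0.87 to -0.08) and *Hsp90aa1*, whose product holds the receptor, by -0.84 (95% interval -1.41 to -0.27). *Nr3c1* differed by -0.53 (95% interval -0.98 to -0.08), and in each of its other 5 probe sets the interval held 0. Genes of 1 pathway move together across the same mice, so these are not separate observations.

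**Figure D3:**
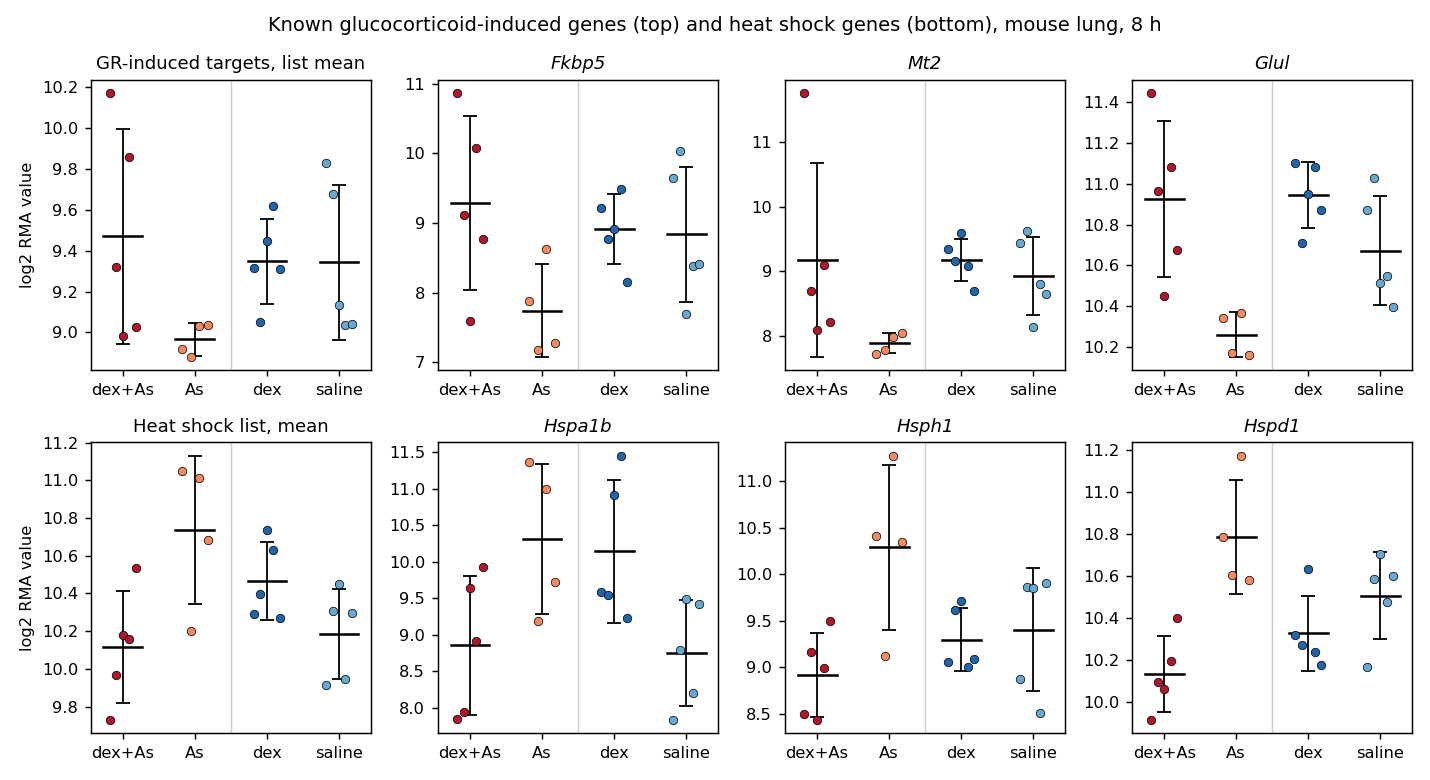
Log2 RMA values (vertical axes) of receptor-induced targets (top, with the mean over 43 genes at the left) and heat shock genes (bottom, with the mean over 14), 1 point per mouse, with lines for the group mean and error bars for the SD, for dex+As, As, dex and saline mice from left to right. The *Fkbp5* values of dex+As mice span 7.59 to 10.87, and the *Hspa1b* mean is 8.86 in dex+As mice against 10.32 in As mice.

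Marker lists give the leukocyte falls a wider view. Of 12 B cell genes all changed below 0 and 7 had every dex+As mouse below every As mouse, where 3.42% of all genes did. None of the 12 was called (limma), where 0.489% of all genes were called lower, and 8 were lower at an unadjusted p under 0.05, where 7.62% of all genes were. The same shares over all genes stand behind the counts of the lists that follow. The B cell genes' median was -0.87, and the list averaged 4.70 to 5.60 in dex+As mice and 5.65 to 6.60 in As mice. *Cd79a*, the B cell receptor chain that defines them, had 5.78, 5.36, 5.99, 5.39 and 4.72 in dex+As mice, against 6.35, 7.48, 7.04 and 6.70 in As mice, with no overlap (adjusted p = 0.253). Of 11 NK and cytotoxic genes all were below 0, with a median of -0.90 and 10 at an unadjusted p of 0.05, and *Klre1* was called. With any probe set of a gene counted, 2 were called lower, where 108 of 18193 genes were. *Gzma*, granzyme A, had 6.07, 8.33, 8.65, 7.08 and 6.84 in dex+As mice, against 8.60, 9.47, 9.44 and 9.47 in As mice. One dex+As mouse, replicate D, reached into the As range, and the change of -1.85 ± 0.44 missed the threshold (adjusted p = 0.0617). Of 18 T cell genes 16 were below 0, with a median of -0.38, 0 called and 2 at an unadjusted p of 0.05. The list averaged 4.81 to 5.08 in dex+As mice and 5.18 to 5.64 in As mice. One member, *Cd3e*, was near level at -0.20 ± 0.27.

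Myeloid lists varied between mice. All 13 neutrophil genes changed below 0 with a median of -0.97, and 0 were called (5 at an unadjusted p of 0.05). The list averaged 9.44 in dex+As replicate A and 6.77 to 7.07 in the other 4, against 7.17 to 9.39 in As mice. *S100a9*, a defining neutrophil gene, had 13.65, 10.50, 11.56, 10.66 and 10.60 in dex+As mice, against 13.75, 11.24, 13.66 and 13.24 in As mice. Replicate A of dex+As thus stood among the high As mice, and As replicate B among the low dex+As mice. Without dex+As replicate A the list's median change was -1.47, without As replicate B -1.46 and without As replicate C -0.79. The 17 monocyte, macrophage and dendritic cell genes had a median of -0.32 with 0 called and 7 at an unadjusted p of 0.05, and averaged 6.99 to 7.78 in dex+As mice and 7.57 to 8.13 in As mice. Dex+As replicate D was the high one, and *Plac8* in it reached 10.03, against 7.95 to 8.51 in the other 4 and 9.86 to 11.21 in As mice. In dex against saline mice the medians were -0.90 for B cell, -0.99 for NK and cytotoxic, -0.99 for neutrophil and -0.47 for monocyte, macrophage and dendritic cell genes. For T cell genes that median was -0.77. The part of these cell type markers in the falls of *Cd300lb*, *Adgre4*, *Ptprc* and the other leukocyte genes was not tested.

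Genes of interferon response and antigen presentation had mostly negative changes. All 20 interferon-stimulated genes changed below 0, with a median of -0.64, 15 at an unadjusted p of 0.05 and 1 called. That was *Oas1a*, a sensor of double-stranded RNA, with 6.65, 7.09, 7.56, 6.82 and 7.02 in dex+As mice, against 8.19, 7.92, 8.61 and 7.87 in As mice. Its groups did not overlap, and the change was -1.12 ± 0.21 (adjusted p = 0.0188). *Irf7*, the master regulator of type I interferon, changed by -0.67 ± 0.17 (adjusted p = 0.0851). Outside the list, *Nlrc5*, the transactivator of MHC class I genes, was called with means of 5.42 in dex+As mice and 6.48 in As mice. Of 12 genes of MHC class II presentation, 11 changed below 0 with a median of -0.70, 9 at an unadjusted p of 0.05 and 0 called. With any probe set of a gene counted, 1 was called lower, where 108 of 18193 genes were. *H2-Ab1*, a class II β chain, had 9.60, 10.27, 10.42, 10.17 and 9.74 in dex+As mice, against 10.68, 11.13, 10.82 and 10.73 in As mice. All dex+As mice were lower, by -0.80 ± 0.19, just outside the threshold (adjusted p = 0.0644).

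Of 41 cytokine and chemokine genes 26 changed below 0, with a median of -0.07, and *Cxcl12* was the one called. At an unadjusted p of 0.05, 10 were lower and 0 higher, where 7.62% of all genes were lower and 5.48% higher. *Il1b*, the inflammatory cytokine, had 8.03, 7.31, 9.88, 7.69 and 6.84 in dex+As mice, against 10.19, 8.03, 10.69 and 11.11 in As mice. The groups overlapped through As replicate B, and the change was -2.05 ± 0.62 (adjusted p = 0.16). *Ccl5* was lower in every dex+As mouse, at -1.15 ± 0.33 (adjusted p = 0.13). Of 20 lipid and glucose genes, *Lpl*, lipoprotein lipase, was called, with 12.88, 12.37, 12.11, 12.69 and 12.51 in dex+As mice, against 12.07, 11.09, 11.39 and 11.15 in As mice. The groups did not overlap and the change was 1.08 ± 0.18 (adjusted p = 0.011). *Pnpla2*, the triglyceride lipase, changed by 0.93 ± 0.26 without passing (adjusted p = 0.131). In this list 6 genes were higher at an unadjusted p of 0.05 and 0 lower. Of 21 cell cycle genes 18 were below 0 with a median of -0.18, and *Ccnd2*, cyclin D2, fell by 0.47 (adjusted p = 0.0413).

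Lung structural lists differed in sign. The median was 0.09 for alveolar type II, -0.10 for alveolar type I and -0.14 for endothelial genes, and 0 of their 32 genes were called, 7 with an unadjusted p under 0.05. All 9 airway ciliated genes changed above 0, with a median of 0.31 and 2 at an unadjusted p of 0.05, and of 11 fibroblast genes 8 were below 0, with a median of -0.27 and 4 at an unadjusted p of 0.05, with 0 called in either list. Of 14 genes of lung ion and water transport 0 were called (3 at an unadjusted p of 0.05), and the epithelial sodium channel subunit *Scnn1a*, at 0.69 ± 0.35 (adjusted p = 0.524), was higher in every dex+As mouse, replicate A most. The antioxidant list had a median of 0.05 over 17 genes and 0 called (4 at an unadjusted p of 0.05), and *Hmox1*, heme oxygenase 1, changed by -0.13 ± 0.23. The 8 platelet genes were all below 0 with a median of -0.81, and averaged 7.17 to 8.77 in dex+As mice and 7.69 to 9.11 in As mice, with 0 called or at an unadjusted p of 0.05. Over 18 further lists, counting those of airway ciliated and fibroblast genes, the medians ran from -0.27 to 0.32, and 0 of their 189 genes were called (limma, 32 at an unadjusted p of 0.05).

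**Figure D4:**
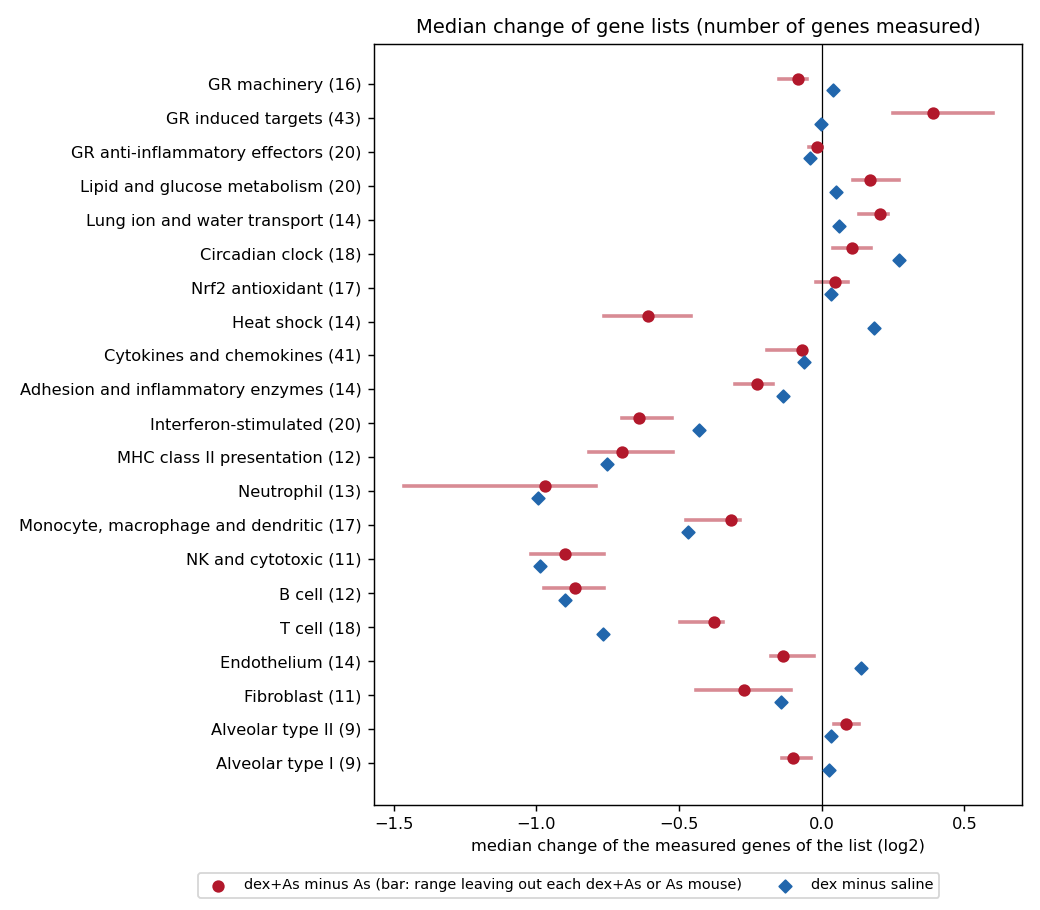
Median log2 change (horizontal axis) of gene lists, as circles for dex+As minus As, with a bar for its range when each dex+As or As mouse was left out, and as diamonds for dex minus saline. Heat shock genes lie at -0.61 for dex+As minus As and 0.18 for dex minus saline, and the receptor-induced targets at 0.39 for dex+As minus As and -0.004 for dex minus saline.

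Most called probe sets changed the same way with and without arsenite. Of the 144 probe sets higher in dex+As than in As mice, 138 had the same sign in dex against saline and 61 (42.36%) were called there, where 0.269% of all probe sets were called higher. Of the 136 that were lower, 132 had the same sign and 50 (36.76%) were called, against 0.357% of all called lower. No probe set was called in opposite directions. Over all probe sets 56.78% had the same sign. The median change of the higher probe sets was 0.95 in dex+As against As and 0.65 in dex against saline, and that of the lower ones was -0.96 in dex+As against As and -0.73 in dex against saline. Having been picked on the first comparison they are larger there by construction. In the other direction, 120 of the 121 probe sets higher in dex than in saline mice and 160 of the 161 lower were of the same sign in dex+As against As. The dex against saline counts, 121 and 161, also leaned on single mice. They were 67 and 45, 30 and 17, and 41 and 37 without dex replicates B, E and F in turn, and 72 and 62, 75 and 99, and 48 and 24 without saline replicates B, E and F. The lower count alone was 92 without dex replicate C and 273 without saline replicate D. Because the fit shares its spread over the 4 groups, the counts were also 198 and 288 without dex+As replicate A, and the lower count 97, 100 and 107 without dex+As replicates C and F and As replicate F.

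Several of the largest responses were called in both backgrounds. *Sema5a* had 7.63, 7.95, 7.80, 8.13 and 7.79 in dex mice, against 5.76, 5.62, 5.58, 6.26 and 5.53 in saline mice. The groups were apart by 2.11 ± 0.21 (adjusted p = 0.000282), and the 2 changes differed by -0.52 (95% interval -1.17 to 0.13), an interval that holds 0. In 1 of its 3 dimmer probe sets, also called in dex against saline, they differed by -0.77 (95% interval -1.50 to -0.04). *Tecrl* changed by 2.03 ± 0.26 in dex against saline (adjusted p = 0.00134), *Fst* by 1.73 ± 0.25 (adjusted p = 0.00315) and *Gnmt* by 1.63 ± 0.22 (adjusted p = 0.00188). *Fst* differed between backgrounds by 0.25 (95% interval -0.50 to 1.00) and *Gnmt* by 0.21 (95% interval -0.45 to 0.88). Among the falls, *Scn3b* had 8.20, 8.24, 7.57, 8.25 and 8.43 in dex mice, against 9.70, 9.70, 9.43, 9.42 and 9.55 in saline mice. No dex mouse reached the saline range, the change was -1.43 ± 0.18 (adjusted p = 0.00134), and the difference between backgrounds was 0.24 (95% interval -0.32 to 0.80). *Adgre4* changed by -2.57 ± 0.50 (adjusted p = 0.0262), *Ptprc* by -1.28 ± 0.26 (adjusted p = 0.0301) and *Cxcl12* by -1.11 ± 0.25 (adjusted p = 0.0492). The intervals do not show that the responses were equal.

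For other genes called with arsenite the probe set of highest mean had a smaller change without it, though none of these differences passed the adjusted threshold. *Galnt15* had 8.00, 8.21, 7.31, 8.49 and 8.30 in dex mice, against 8.18, 8.11, 6.79, 7.33 and 6.15 in saline mice. Saline replicates B, C and E lay within the dex range, and the changes differed by 1.08 (95% interval 0.07 to 2.09) (unadjusted p = 0.0371). The gene's other probe set was called in both, with 1.18 in dex against saline (adjusted p = 0.0336), and there the changes differed by 0.34 (95% interval -0.41 to 1.08). *Akr1c14* was called in both, at 1.27 ± 0.18 in dex against saline (adjusted p = 0.00315), with a difference of 0.61 (95% interval 0.05 to 1.18) (unadjusted p = 0.0346). *Nmb* differed by 0.56 (95% interval 0.10 to 1.03) (unadjusted p = 0.0199) and *Sult1a1* by 0.72 (95% interval 0.05 to 1.39) (unadjusted p = 0.0375). These genes were picked by their change with arsenite, which is part of the difference, so their differences lean above 0 by construction. Over the 144 probe sets higher in dex+As than in As mice the median difference was 0.25. Over the 121 higher in dex than in saline mice it was -0.13. Of the classical targets, *Fkbp5* had 9.22, 8.77, 8.91, 9.48 and 8.15 in dex mice, against 9.65, 10.04, 7.70, 8.38 and 8.41 in saline mice. Saline replicates B and C exceeded all 5 dex mice, and the change was 0.07 ± 0.51 (adjusted p = 0.995). Averaged over the 43 receptor-induced genes, the level was 9.05 to 9.62 in dex mice, against 9.83 and 9.68 in saline replicates B and C and 9.04 to 9.13 in the other 3 saline mice. Saline replicates B and C were both in array batch 3, which held no dex mouse and 1 dex+As mouse, replicate E. The part of batch in their levels was not tested. *Arrdc2*, an arrestin-like target, had the lowest unadjusted p of the targets named, and differed by 1.66 (95% interval 0.70 to 2.63) (unadjusted p = 0.00186). It was called in neither comparison. Its change was 0.99 ± 0.33 in dex+As against As (adjusted p = 0.235) and -0.68 ± 0.32 in dex against saline (adjusted p = 0.532).

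**Figure D5:**
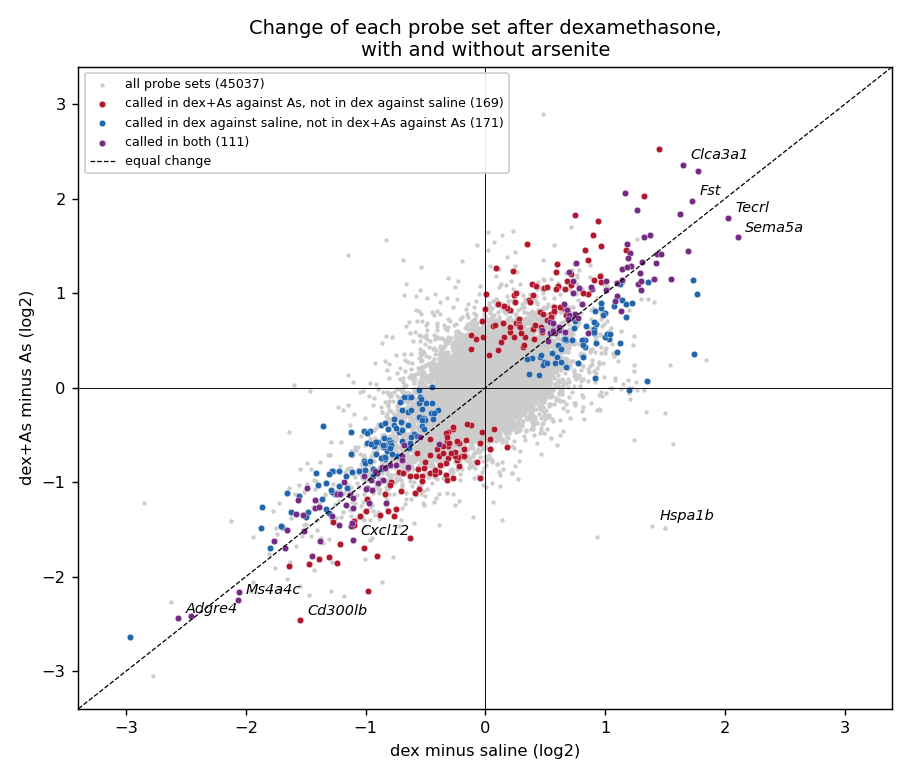
Log2 change of each of 45037 probe sets in dex+As against As (vertical axis) and in dex against saline (horizontal axis), with probe sets called in both, in either 1 or in neither comparison in separate colours and a dashed line of equal change. The 111 probe sets called in both lie in the upper right and lower left, and 0 are called in opposite directions.

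Within the array batches that held both groups, single-mouse differences could be read. For *Clca3a1* the difference, dex+As minus As, was 1.82, 3.42 and 1.98 in batches 2, 4 and 5. For *Fst* it was 1.64, 2.38 and 2.04, for *Gnmt* 1.47, 1.97 and 2.09, for *Fabp1* -1.34, -1.40 and -1.11 and for *Cd300lb* -2.66, -1.57 and -2.02. These genes were called from groups that do not overlap, so the sign within a batch is fixed by that choice. *Fkbp5*, whose groups overlap, gave 0.89, 1.94 and -0.36, and *Hspa1b* gave -1.44, -1.24 and -0.72. With batch as a block, 7 of the 50 called genes followed over the alternative settings lost their call, with adjusted p-values of at most 0.076.

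Promoter letters were compared last. A 12-letter glucocorticoid response element with 1 full half-site, AGAACANNNTGT or its reverse complement, was searched on both strands of the RefSeq windows, 250 bases before to 50 after each start (GRCm38.p6). Of the 80 genes called higher 63 had a window and 0 held it, and of the 89 called lower 68 had a window and 0 held it, where 130 of 27025 genes (0.481%) did. The half-site AGAACA alone, part of the longer letters, was in 15 of the 63 (23.8%) and in 15 of the 68 (22.1%), close to the 21.3% of all genes. Among the 15 largest rises 5 of the 11 with a window held it, and among the 15 largest falls 6 of the 12, *Fabp1*, *Adgre4*, *Ms4a4c* and *Ms4a4b* among them. Such a match describes letters in a window of 300 bases and no receptor binding was measured.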

How the data were processed

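Lung RNA was measured on 1 Affymetrix mouse whole-genome array per mouse. The authors deposited log2 probe set values from robust multiarray averaging (RMA, as the submitters' processing notes name it). The sources used here do not say which arrays entered that step together or which genome build the probe sets follow. Raw arrays were not reprocessed. All columns mapped to a mouse of the series. The table holds 45101 probe sets. Without its 64 controls 45037 entered the tests, of which 34945 carried 1 gene symbol, 932 several and 9160 none. Genes were named only from probe sets with 1 symbol, and a gene with several probe sets was given by the one of highest mean over the 19 mice, which left 18193 genes. Among the 280 calls, 29 carried no single symbol.

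Groups were taken from the sample labels. One linear model was fitted over 19 mice (5 dex+As, 4 As, 5 dex and 5 saline) with limma 3.58.1 in R 4.3.3 (lmFit and eBayes), with contrasts for dex+As minus As, dex minus saline and the difference between them. Adjusted p-values are Benjamini-Hochberg over all probe sets, and a probe set was called at 0.05. The study's methods name the rank product for other groups of the series and no test for these. It was written anew in Python 3.11.15 (numpy 2.4.6, pandas 2.3.3) and is among the alternatives. Both tests were tested on simulated data. Figures were drawn with matplotlib 3.10.9.

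Given mouse by mouse are genes from the 15 largest rises and falls among called genes, and members of the 38 gene lists described, called members and textbook examples first. Means are given for other called genes picked after their values were seen. The gene lists (17 of pathways and 21 of cell types, 51 of their 589 entries not measured) and the comparison itself were chosen with earlier results of these data known. Lists are described by counts and medians with no test. Alternatives were a filter on dim probe sets, a block for array batch or for the replicate letter, weights for array quality, quantile normalization, median centring, an intensity trend in the prior, the groups of the comparison alone, As replicate E kept, each mouse left out and, added after the data were seen, array batch 1 left out. The number of mice limits the precision. Promoter windows come from RefSeq tables on GRCm38.p6.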

Additional observations from a re-analysis of the deposited data

Results flagged for a closer look

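A mouse far from the others of its group (Dixon's ratio above its 95% critical value) was found in 10 of 184 groups of values tested, where chance gives about 5%. Each flag concerns 1 mouse on 1 gene, and the causes were not tested.

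In dex+As replicate D, *Cd300lb* was 5.86 against 4.32 to 4.75 in the other dex+As mice, *Adgre4* was 6.34 against 3.74 to 4.24, *Il10ra*, an interleukin 10 receptor chain, was 4.98 against 4.27 to 4.45, and *Plac8* was 10.03 against 7.95 to 8.51. In the same mouse *Tnik* was low, at 7.22 against 8.22 to 8.52. In dex+As replicate A, *Mt2* was 11.75 against 8.10 to 9.10, while *Tecrl* was low at 5.41 against 6.70 to 7.10 and *Adgrl3* was low at 7.22 against 8.20 to 8.53. In the As group, *Uchl1* was 6.05 in replicate B against 5.42 to 5.49 in the other As mice, and *Gzma* was 8.60 in replicate A against 9.44 to 9.47.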

How the results depend on the processing

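Calls are given as higher and lower in dex+As against As (144 and 136), then higher and lower in dex against saline (121 and 161). Array weights gave 272, 341, 552 and 661, and the rank product 449, 637, 381 and 624. The replicate letter as a block (replicate block) gave 72, 40, 28 and 8. Letters were not taken to pair mice. Deviations of same-letter mice had a median r of -0.0514 over 22 pairs (0.0285 over 113 others), and not every mouse correlated best with its own letter. So few mice cannot exclude a pairing. A filter on dim probe sets gave 232 and 245 lower calls in the 2 comparisons. Array batch as a block gave 216, 177, 239 and 236, and mice of the same batch had a median r of 0.1273 over 25 pairs (-0.0254 over 110 others). The groups of the comparison alone gave 84 lower calls in dex+As against As. Leaving out array batch 1, chosen after seeing the data, gave 221 and 268 in dex+As against As and 88 lower in dex against saline. With As replicate E kept, dex+As against As had 28 and 6 calls. Leaving out each mouse in turn gave 33 to 199, 18 to 215, 30 to 198 and 17 to 288 calls, and 0 to 1 interactions. Signs turned with As replicate E kept for *Ccnd2* (0.32), *Cd52* (0.0354), *Coro1a* (0.34), *H2-Ab1* (0.18), *Hsp90aa1* (0.70), *Hspa8* (1.34), *Hspd1* (0.83), *Nr3c1* (0.31), *Ptprc* (0.13) and *Rgs2* (0.49), and with array batch as a block for *Dusp1* (-0.0213). The cause was not tested. Of the 50 called genes followed, 27 lost their call under the replicate block, 21 with the groups of the comparison alone and 31 with As replicate E kept. With array weights 0 lost it, and 2 to 34 did when a dex+As or As mouse was left out.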
